A study of Mus musculus with 10 samples.

Results

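Around the central vein of each liver lobule, a thin rim of hepatocytes makes glutamine and answers to Wnt signals. Wnt ligands from the endothelium of the vein stabilise β-catenin in these cells, which with TCF factors switches on the pericentral genes, while hepatocytes near the portal tract run the urea cycle and break glutamine down. The rim takes up glutamate and ammonia that escaped the urea cycle and joins them into glutamine. The 10 genes described here belong to this programme. They were taken from the deposited table by gene symbol, each matching 1 row of the 47729, and all 10 passed the filter, a mean level of 0.5 FPKM or more (fragments per kilobase of transcript, scaled to the size of the library), as did 12395 genes in all. Slc1a2, Rhbg, Glul and Oat carry out glutamine and glutamate metabolism, Axin2, Nkd1, Rnf43 and Znrf3 are Wnt targets that dampen the pathway, Lgr5 is a receptor that strengthens it, and Tbx3 is a transcription factor.

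The samples were whole livers of female mice with a full-body knockout of Etnppl (KO, n = 5) or the wild-type gene (WT, n = 5). The enzyme Etnppl breaks down phosphoethanolamine. Mice of both genotypes ate chow for 8 weeks and then, for 10 weeks, a high-fat diet (45% of calories), so the comparison has no chow-fed group. The labels name neither the deleted part of Etnppl, nor the strain, nor the age at harvest. Nothing states that the numbered samples of a genotype came from separate mice, and p-values then reflect only how these libraries vary, which may be technical.

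Depth, estimated from the steps between low values, was 21100000 to 28300000 fragments per library, so that 1 FPKM stands for 21.1 to 28.3 fragments per kilobase of transcript. Etnppl averaged 36.9 ± 11.5 FPKM in WT against 8.69 ± 1.16 FPKM in KO (SD, n = 5 each) without overlap (log2 fold change -1.99, limma adjusted p = 0.000387). Of the 9 hepatocyte markers, 8 had a log2 fold change above 0, and their summed level ran from 67932 to 79366 FPKM in WT and from 75447 to 87303 FPKM in KO. Kupffer and stellate cell markers each had 7 of 8 genes below 0. Also below 0 were 4 of 5 lymphocyte, 4 of 5 erythroid, 3 of 4 cholangiocyte and 5 of 8 sinusoidal endothelium markers tested. Of 7 central vein endothelium markers tested, 4 were above 0 and 3 below. Over all genes tested, 34.9% were above 0. The Kupffer cell markers summed to 229.5 to 321.2 FPKM in the WT libraries and 197 to 300.1 FPKM in the KO libraries, the stellate cell markers to 185 to 254 and 178 to 204 FPKM, and 0 of the hepatocyte, Kupffer and stellate markers passed the limma test. Their part in the values below was not tested. KO replicate 3 stood apart through pancreas transcripts, with a summed 163 FPKM over 7 pancreas markers against 2.32 to 4.22 FPKM in the other libraries. WT replicate 2 was the lowest WT library in 10 of 17 other pericentral genes and the highest in 11 of 18 periportal genes. For the 10 genes, their pairs and the ratios, results are therefore also given without these libraries where they differ. The gene lists below were fitted with all libraries only. In whole tissue, fewer pericentral cells and less RNA per pericentral cell cannot be told apart.

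None of the 10 genes passed an adjusted p of 0.05 in the limma fit of all genes, against 0.0645% of all genes tested (8 of 12395; 0.0323% higher and 0.0323% lower in KO). Of the 10, 2 genes, Slc1a2 and Glul, had an unadjusted p under 0.05, a share of all genes of 11.8%. Both were higher in KO, the direction of 2.69% of all genes at that p, while 9.07% of all genes were lower in KO at that p and none of the 10 were. With median-of-ratios scaling the genes at that p numbered 669 higher and 599 lower, against 334 and 1124 as deposited, and with quantile normalization 645 and 680. Of the 10 genes, 4 had a log2 fold change above 0 and 6 below, with a median of -0.01, beside a median of -0.05 over all genes, of which 34.9% were above 0. Slc1a2, Rhbg, Glul and the feedback inhibitor Znrf3 lay above 0, and Oat, Lgr5, Tbx3 and the feedback inhibitors Axin2, Nkd1 and Rnf43 lay below 0. The signs of Oat, Lgr5 and Znrf3, all within 0.03 of 0, changed with the scaling or the weights.

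**Figure D1:**
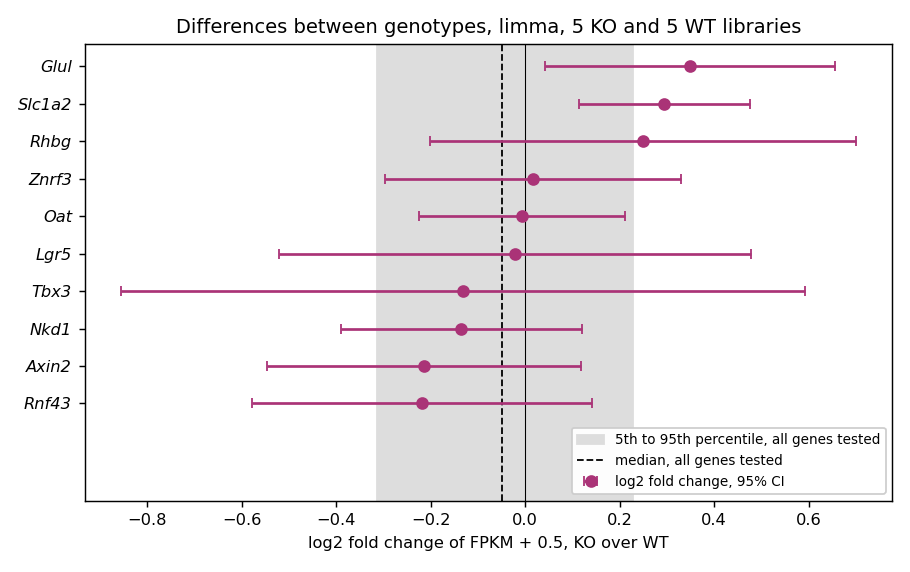
Log2 fold change of each gene, KO over WT (x axis, on log2(FPKM + 0.5)), with its 95% confidence interval from limma over 5 KO and 5 WT libraries. Only the intervals of Glul and Slc1a2 leave out 0, and the grey band holds the middle of the distribution of all genes tested (5th to 95th percentile, -0.31 to 0.23).

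Mean levels in WT spanned from 1008 FPKM for Oat to 2.18 FPKM for Nkd1, a per-length scale on which genes can be compared. In WT the order by mean was Oat, Glul, Slc1a2, Tbx3, Rnf43, Rhbg, Axin2, Lgr5, Znrf3 and Nkd1. The steps from Oat to Glul (2.65-fold), from Glul to Slc1a2 (7.01-fold) and from Slc1a2 to Tbx3 (5.03-fold) had no overlap between the libraries in either genotype. Rnf43 and Rhbg did not overlap in WT but did in KO, and all other neighbours in this order overlapped in both genotypes, so their order is not resolved. Among the 12395 genes tested, Oat ranked 80 and Glul 184 by mean level, Slc1a2 ranked 1167, and the signalling genes lay between rank 4695 (Tbx3) and rank 9662 (Nkd1).

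**Figure D2:**
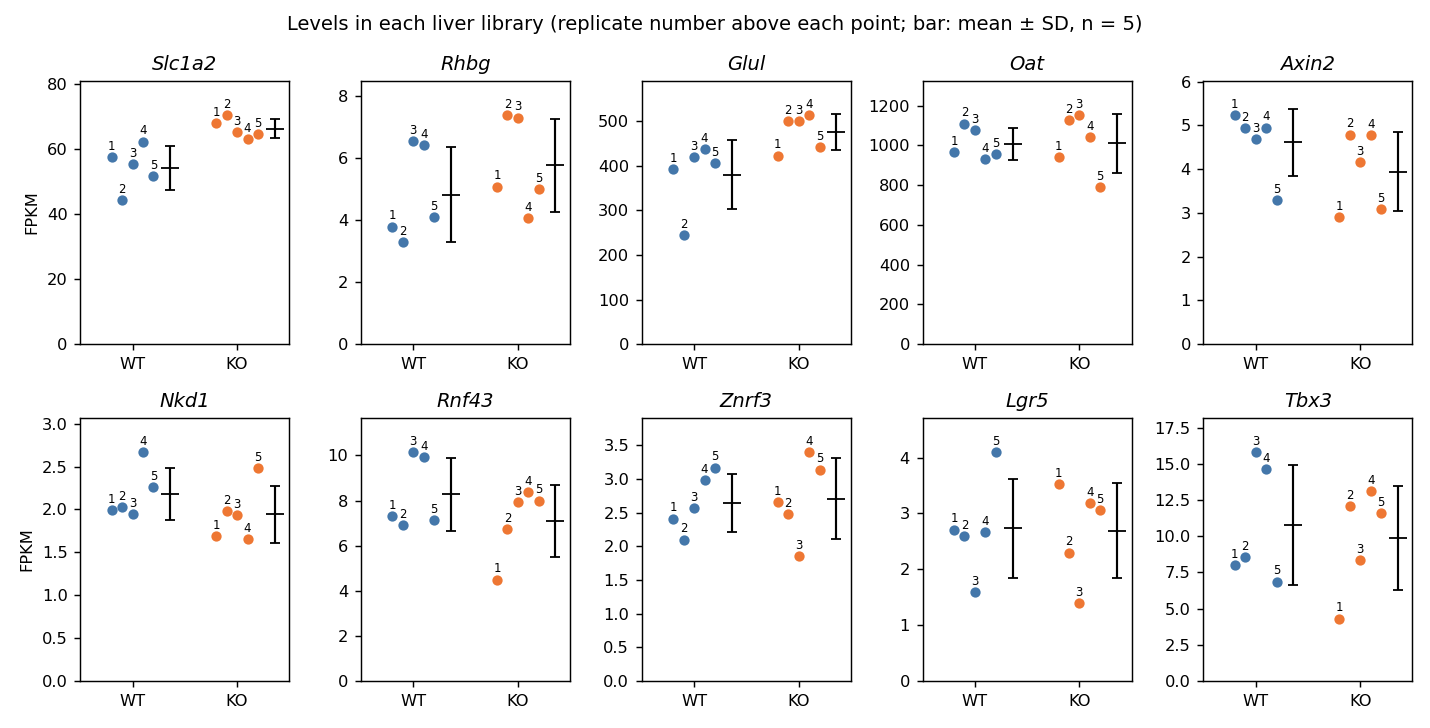
FPKM (y axis, from 0, a scale per gene) of the 10 genes in each WT and KO liver library, with replicate numbers at the points and bars for mean ± SD (n = 5). The KO points of Slc1a2 lie above all WT points, WT replicate 2 lies apart in Glul, and in the other genes the groups overlap.

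Slc1a2 encodes GLT-1, a sodium-driven glutamate transporter that brings glutamate into the pericentral cells. The gene is on the plus strand of chromosome 2, 102658659 to 102790784 (GRCm38). In WT replicates 1 to 5 it was at 57.46, 44.20, 55.37, 62.25 and 51.68 FPKM, and in KO replicates 1 to 5 at 68.04, 70.31, 65.10, 62.92 and 64.55 FPKM. The lowest KO library was above the highest WT library, a separation that 0.581% of all genes tested showed in this direction, 2.21% in the other and 2.79% in either. None of the other 9 genes was separated in this way. The KO libraries were also closer together than the WT libraries, with coefficients of variation of 4.47% and 12.5%. The means were 54.2 ± 6.77 and 66.2 ± 2.96 FPKM (SD, n = 5 each), a log2 fold change of 0.29 (95% CI 0.11 to 0.47) that did not pass (limma adjusted p = 0.195, 0.175 to 0.332 over the other settings). It was 0.22 without WT replicate 2 (limma adjusted p = 0.210) and 0.30 without KO replicate 3 (limma adjusted p = 0.266).

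Sequence before gene starts was read for the genes that RefSeq's promoter table (GRCm38.p6) holds, which were Glul, Oat, Slc1a2, Axin2, Rnf43 and Nkd1. The core letters of the TCF binding motif, CTTTGA or TCAAAG on the other strand, were searched from 250 to 31 bases before each start. Slc1a2 was the only one of these 6 genes with a match in that window, and it had 2. So 1 of the 7 starts of these genes had a match, a share near that of the table. Of its 32851 starts, 12.6% had at least 1 match and 1.13% at least 2. The windows of Glul and of an Rnf43 start (chr11:87662837-87663056) lay wholly within annotated exons, counted on either strand. The first Slc1a2 match began 206 bases before the start and the second 77 bases before it, the latter within a short untranslated exon of another Slc1a2 transcript. The start in the table lies inside the gene as GENCODE draws it. The stretch up to that exon (chr2:102706188-102706355, plus strand) is shown because Slc1a2 is the gene whose genotypes did not overlap, beside the window of Axin2 (chr11:108920099-108920318, plus strand), the standard readout gene of Wnt activity, with matches in capitals.
Slc1a2: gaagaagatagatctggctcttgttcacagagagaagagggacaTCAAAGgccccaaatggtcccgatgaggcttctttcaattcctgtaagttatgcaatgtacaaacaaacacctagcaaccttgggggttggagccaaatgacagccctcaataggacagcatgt
Axin2: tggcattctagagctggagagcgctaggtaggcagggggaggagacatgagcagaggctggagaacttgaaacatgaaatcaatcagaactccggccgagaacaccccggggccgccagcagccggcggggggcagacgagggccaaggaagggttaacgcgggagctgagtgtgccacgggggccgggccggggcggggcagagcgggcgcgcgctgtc
The Axin2 stretch holds none of these letters in this order. A match describes the sequence and is not evidence of binding.

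Rhbg encodes a membrane channel for ammonia and ammonium. The gene is on the minus strand of chromosome 3, 88242874 to 88254709 (GRCm38). Its WT replicates 1 to 5 were at 3.79, 3.28, 6.55, 6.41 and 4.09 FPKM, and KO replicates 1 to 5 at 5.08, 7.38, 7.31, 4.06 and 4.99 FPKM. Both genotypes had libraries at a low and at a high level, and they overlapped widely. The log2 fold change was 0.25 (95% CI -0.20 to 0.70; limma adjusted p = 0.682). It was 0.14 without WT replicate 2, 0.16 without KO replicate 3, 0.16 without KO replicate 2 and 0.05 without WT replicate 2 and KO replicate 3. Of its exon bases, 1190 are also annotated to the overlapping model Gm38392, which was listed at 0 to 0.3 FPKM, so how reads were split between them is uncertain.

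Glul encodes glutamine synthetase, which joins glutamate and ammonia and marks the pericentral rim in mouse liver. Its position is chromosome 1, plus strand, 153899944 to 153909723 (GRCm38). In WT replicates 1 to 5 it was at 393, 244, 418, 438 and 406 FPKM, and in KO replicates 1 to 5 at 422, 499.7, 499.9, 513 and 441 FPKM. All 5 KO libraries were above the WT mean and 4 were above the highest WT library. The mean was 380 ± 77.7 FPKM in WT, a value that WT replicate 2 lowered, and 475 ± 40.5 FPKM in KO (SD, n = 5 each), so KO livers had 125% of the WT mean. The log2 fold change of 0.35 (95% CI 0.04 to 0.66) did not pass (limma adjusted p = 0.347, 0.315 to 0.521 over the other settings). Without WT replicate 2 it was 0.20 (limma adjusted p = 0.319), and without both WT replicate 2 and KO replicate 3 it was 0.18 (limma adjusted p = 0.433), so that 1 library carried much of the difference between the means.

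Oat encodes ornithine aminotransferase, which turns ornithine into the precursor of glutamate in the same cells. Its position is chromosome 7, minus strand, 132557478 to 132576398 (GRCm38). Levels in WT replicates 1 to 5 were 965, 1109, 1078, 930.5 and 957 FPKM, and in KO replicates 1 to 5 they were 939.8, 1127, 1151, 1040.3 and 792 FPKM. The highest and the lowest library were both KO. The means of 1008 ± 80.0 and 1010.0 ± 147 FPKM (SD, n = 5 each) gave a log2 fold change of -0.01 (95% CI -0.22 to 0.21; limma adjusted p = 0.986). The interval, 0.856-fold to 1.16-fold, was the second narrowest of the 10 after that of Slc1a2, and the sign changed with the scaling, with a value of 0.05 after median-of-ratios scaling. The log2 fold change was 0.03 without WT replicate 2 and -0.06 without KO replicate 3.

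Axin2 encodes a scaffold of the complex that marks β-catenin for destruction, and is itself switched on by β-catenin. It lies on the plus strand of chromosome 11, 108920349 to 108950783 (GRCm38). In WT replicates 1 to 5 it was at 5.23, 4.94, 4.68, 4.95 and 3.29 FPKM, and in KO replicates 1 to 5 at 2.91, 4.79, 4.16, 4.78 and 3.08 FPKM. No KO library exceeded the highest WT library and 2 were below the lowest, but WT replicate 5 lay close to these 2. The log2 fold change was -0.21 (95% CI -0.55 to 0.12; limma adjusted p = 0.620), from -0.32 to -0.12 over the other settings. The value nearest 0 was without KO replicate 1, and without KO replicate 5 it was -0.14.

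Nkd1 encodes Naked cuticle 1, which binds Dishevelled and restrains the Wnt signal. The gene is on the plus strand of chromosome 8, 88521354 to 88594884 (GRCm38). It was at 1.99, 2.03, 1.95, 2.67 and 2.26 FPKM in WT replicates 1 to 5, and at 1.69, 1.98, 1.93, 1.65 and 2.48 FPKM in KO replicates 1 to 5. In KO 3 libraries were below the lowest WT library, and KO replicate 5 was above 4 of the WT values. The log2 fold change was -0.14 (95% CI -0.39 to 0.12; limma adjusted p = 0.699). Without WT replicate 4 it was -0.07, and without KO replicate 5 it was -0.21.

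Rnf43 and Znrf3 encode related membrane ubiquitin ligases that remove Frizzled receptors from the cell surface. They lie on chromosome 11, Rnf43 on the plus strand (87662722 to 87735539) and Znrf3 on the minus strand (5276324 to 5444847, GRCm38). Rnf43 was at 7.30, 6.90, 10.15, 9.94 and 7.12 FPKM in WT replicates 1 to 5, and at 4.49, 6.72, 7.93, 8.38 and 8.00 FPKM in KO replicates 1 to 5. WT replicates 3 and 4 were above every KO library, and KO replicate 1 was the lowest of all. Its log2 fold change was -0.22 (95% CI -0.58 to 0.14; limma adjusted p = 0.646), and it was -0.07 without KO replicate 1 and -0.14 without WT replicate 3. The Rnf43 value was -0.28 without WT replicate 2, -0.26 without KO replicate 3 and -0.32 without both. Znrf3 was at 2.41, 2.10, 2.57, 2.98 and 3.17 FPKM in WT replicates 1 to 5, and at 2.66, 2.48, 1.85, 3.40 and 3.14 FPKM in KO replicates 1 to 5. Its KO libraries ran both lower and higher than its WT libraries, with a log2 fold change of 0.02 (95% CI -0.30 to 0.33; limma adjusted p = 0.977) whose sign changed to -0.01 with array weights. The Znrf3 value was -0.05 without WT replicate 2 and 0.12 without KO replicate 3. Rnf43 was the more abundant of the pair in every library.

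Lgr5 encodes a receptor for R-spondins, which holds these ligases in check, and is known as a stem cell marker in gut and as a pericentral gene in liver. Its position is chromosome 10, minus strand, 115450311 to 115587780 (GRCm38). Levels in WT replicates 1 to 5 were 2.71, 2.60, 1.59, 2.66 and 4.10 FPKM, and in KO replicates 1 to 5 3.53, 2.30, 1.39, 3.19 and 3.06 FPKM. The lowest library in each genotype was replicate 3, and the KO values lay between 1.39 and 3.53 FPKM. The log2 fold change was -0.02 (95% CI -0.52 to 0.48; limma adjusted p = 0.982), and it was 0.03 with median-of-ratios scaling or quantile normalization. Without KO replicate 3 it was 0.15 (limma adjusted p = 0.801), without WT replicate 5 it was 0.12, and without WT replicate 3 it was -0.17.

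Tbx3 encodes a T-box transcription factor that acts downstream of β-catenin in liver. The gene is on the plus strand of chromosome 5, 119670669 to 119684724 (GRCm38). In WT replicates 1 to 5 it was at 8.00, 8.53, 15.81, 14.63 and 6.86 FPKM, and in KO replicates 1 to 5 at 4.31, 12.10, 8.34, 13.12 and 11.61 FPKM. It had the widest spread of the 10 genes, with coefficients of variation of 38.4% in WT and 36.4% in KO and a 3.67-fold range over the 10 libraries. The log2 fold change of -0.13 therefore has a wide interval (95% CI -0.86 to 0.59, or 0.553-fold to 1.51-fold; limma adjusted p = 0.907). The value was 0.12 without KO replicate 1 and 0.02 without WT replicate 3. It was -0.19 without WT replicate 2 and -0.10 without KO replicate 3. Tbx3 shares 115 exon bases with Tbx3os1 on the opposite strand, which was at 4.37 to 12.1 FPKM. Whether the authors counted by strand is not stated in the labels, so how reads from that stretch were assigned is unknown.

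To describe which of these genes varied together, each library's log2(FPKM + 0.5) was taken as a deviation from its genotype mean, over 10 libraries and 45 gene pairs. The libraries share their scaling and mix of cells, so the coefficients are a description without a test. Tbx3 and Rnf43 went together most closely (Pearson r = 0.90, Spearman rho = 0.93). WT replicates 3 and 4 and KO replicate 4 were high in both genes and KO replicate 1 was low in both. The coefficient was 0.77 without KO replicate 1 and WT replicate 5, the 2 libraries farthest from the median Tbx3 deviation of all 10, and 0.95 without WT replicate 2 and KO replicate 3. Glul and Slc1a2 came next (r = 0.77, rho = 0.33), but r was 0.33 without WT replicate 2, which was low in both, 0.50 without WT replicate 2 and KO replicate 1, and 0.35 without WT replicate 2 and KO replicate 3. Lgr5 and Znrf3 had r = 0.70 (rho = 0.75; 0.60 without KO replicate 3 and WT replicate 3), whereas Lgr5 and Rhbg had the lowest value, r = -0.66 (rho = -0.48; -0.62 without WT replicates 3 and 4). Of the 45 pairs, 31 had a coefficient above 0, with a median of 0.21.

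**Figure D3:**
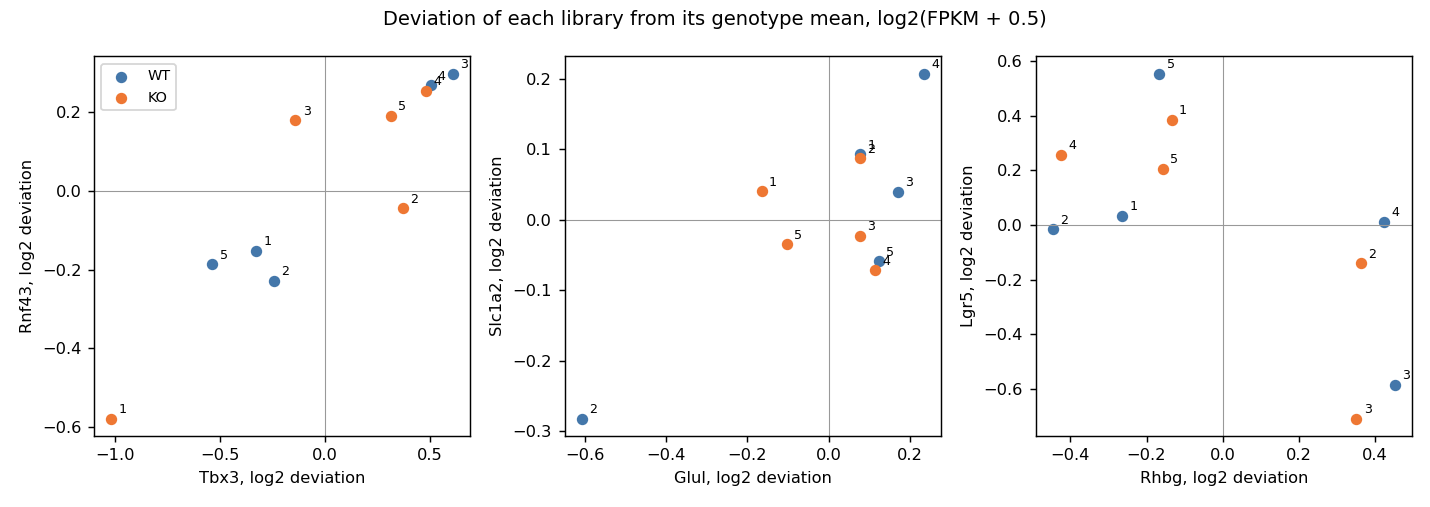
Deviation of each library from its genotype mean, in log2(FPKM + 0.5), for Tbx3 and Rnf43 (left), Glul and Slc1a2 (middle) and Rhbg and Lgr5 (right), with replicate numbers at the points. Points follow a rising line on the left (r = 0.90), include WT replicate 2 far from the rest in the middle (r = 0.77, and 0.33 without it), and fall from left to right on the right (r = -0.66).

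Among 10389 genes averaging 1 FPKM or more, the patterns most like that of Glul after removal of the genotype means were those of the Golgi protein gene Golgb1 (r = 0.93), Serinc2 (r = 0.93) and Mex3d (r = 0.92), over the same 10 libraries. Their Spearman coefficients of 0.76, 0.60 and 0.73 were lower. For Oat they were Lsp1 (r = 0.95), the Mediator subunit gene Med28 (r = 0.95) and the kinase gene Mknk2 (r = 0.91), and for Axin2 they were the adaptor subunit gene Ap4m1 (r = 0.93), Lyplal1 (r = 0.92) and Sh3tc1 (r = 0.91). These coefficients are the highest of 10389 over 10 libraries and are given as a description.

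The ratio of glutamine synthetase to the liver glutaminase Gls2, which releases ammonia from glutamine near the portal tract, does not depend on the scaling of a library. In FPKM, Gls2 was at 164, 249, 163, 133 and 139.6 in WT replicates 1 to 5 and at 187, 165, 162, 160.2 and 148 in KO replicates 1 to 5. The log2 ratio of Glul to Gls2 was 1.26, -0.03, 1.36, 1.72 and 1.54 in WT and 1.17, 1.60, 1.63, 1.68 and 1.57 in KO. WT replicate 2 alone had as much Gls2 as Glul. The mean difference, KO minus WT, was 0.36 (1.17 ± 0.69 in WT, 1.53 ± 0.20 in KO, SD, n = 5 each; two-sided p = 0.341 by exact permutation, 0.611 adjusted over 2 ratios), and 0.06 without WT replicate 2. The log2 ratio of Glul to Cps1, which starts the urea cycle, was -0.69 ± 0.42 in WT and -0.83 ± 0.36 in KO (n = 5 each; difference -0.14, exact two-sided permutation p = 0.611, 0.611 adjusted). Without WT replicate 2 that difference was -0.33 (exact two-sided permutation p = 0.151, n = 4 and 5), and without KO replicate 1 it was -0.01. Neither ratio differed beyond the spread between libraries. The smallest p that 5 against 5 libraries allow is 0.00794.

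**Figure D4:**
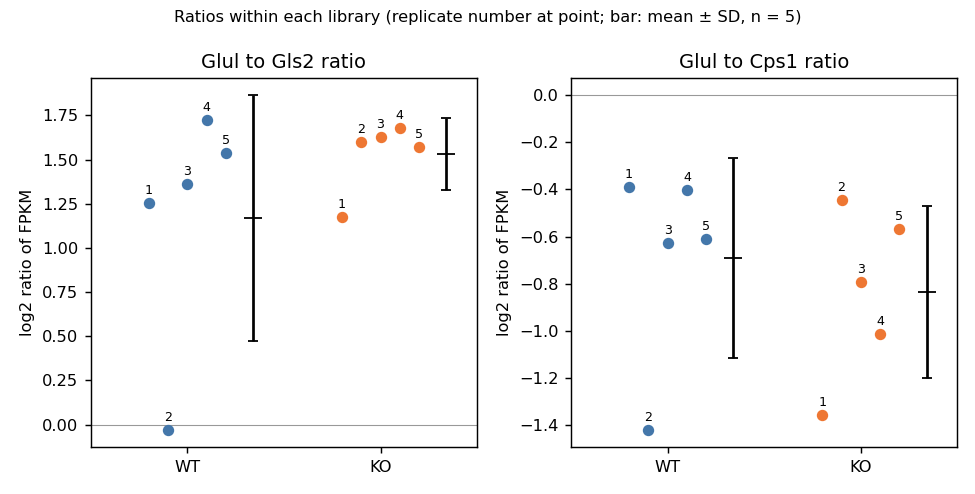
Log2 ratio of FPKM within each library (y axis) for Glul to Gls2 (left) and Glul to Cps1 (right) in WT and KO, with replicate numbers at the points and bars for mean ± SD (n = 5). WT replicate 2 is the lowest point in both panels, at -0.03 and -1.42.

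Genes that carry the Wnt signal to this programme were described from lists, with the same limma fit. In that fit 34.9% of all genes tested had values above 0, so most genes lay below 0 in any case. The median over all genes was -0.05, and -0.00094 with median-of-ratios scaling. Of 13 genes for Wnt ligands, R-spondins and their secretion, 4 were tested, all 4 with values below 0 (median log2 fold change -0.19) and 0 past the test. Rspo3, the R-spondin of the central vein endothelium, averaged 3.996 ± 0.33 FPKM in WT against 3.37 ± 0.50 FPKM in KO (log2 fold change -0.22, limma adjusted p = 0.426), and the endothelial ligand Wnt2 at 2.16 ± 0.56 and 1.82 ± 0.46 FPKM (limma adjusted p = 0.709). Porcn, which adds the lipid that Wnt proteins need, was at 2.15 ± 0.16 and 1.82 ± 0.24 FPKM and the Wnt carrier Wls at 2.96 ± 0.30 and 2.71 ± 0.23 FPKM. Wnt9b, the other main ligand of the central vein, lay below the filter at 0.17 to 0.39 FPKM over the 10 libraries. The central vein endothelium markers as a whole had summed levels of 13.4 to 16.6 FPKM in WT and 10.7 to 16.6 FPKM in KO.

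Of 16 receptor genes, 10 were tested, 2 with values above and 8 below 0 (median -0.18), and 0 passed. Fzd4, a Frizzled receptor, averaged 5.83 ± 1.73 FPKM in WT against 3.99 ± 0.75 FPKM in KO (log2 fold change -0.47, limma adjusted p = 0.278). The paired co-receptors lay on opposite sides, with Lrp6 at 14.1 ± 1.11 and 12.2 ± 0.91 FPKM (limma adjusted p = 0.308) and Lrp5 at 25.9 ± 0.90 and 29.6 ± 2.82 FPKM (limma adjusted p = 0.314). Lgr4, the relative of Lgr5 that most hepatocytes express, was at 7.35 ± 0.45 and 7.13 ± 0.85 FPKM. Its level exceeded that of Lgr5 in every library.

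All 12 genes of Dishevelled, the destruction complex and β-catenin were tested, 7 above and 5 below 0 (median 0.01), and 0 passed. Ctnnb1, which encodes β-catenin, averaged 64.7 ± 3.53 FPKM in WT against 64.9 ± 3.18 FPKM in KO (log2 fold change 0.0046, 95% CI -0.12 to 0.13). Apc, a scaffold of the complex, was at 5.43 ± 0.67 and 4.87 ± 0.70 FPKM. Btrc, which recognises β-catenin for ubiquitination, was at 2.02 ± 0.15 and 2.47 ± 0.20 FPKM (limma adjusted p = 0.324), Dvl1 at 18.6 ± 0.89 and 21.1 ± 3.21 FPKM and the kinase Gsk3b at 5.27 ± 0.36 and 4.79 ± 0.41 FPKM. Of 14 genes for TCF factors and their partners, 12 were tested, 4 above and 8 below 0 (median -0.06), and 0 passed. Bcl9l, a β-catenin co-activator, had the lowest p of these, at 13.1 ± 1.48 and 16.3 ± 1.19 FPKM (log2 fold change 0.31, limma adjusted p = 0.182), Tle1, a co-repressor, was at 29.9 ± 3.72 and 35.1 ± 6.01 FPKM, and Tcf7l2, the main TCF factor of hepatocytes, at 5.73 ± 1.13 and 5.05 ± 0.70 FPKM.

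Of 15 genes for Wnt inhibitors, mostly secreted, 5 were tested, 3 above and 2 below 0 (median 0.10), and 0 passed. Notum, a secreted enzyme that strips the lipid from Wnt proteins, was by far the most abundant, with 26.6 ± 2.65 FPKM in WT against 28.9 ± 5.75 FPKM in KO (limma adjusted p = 0.773). Dact2 was at 6.28 ± 1.96 and 5.32 ± 1.47 FPKM and Dact1 at 0.934 ± 0.131 and 1.06 ± 0.214 FPKM.

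**Figure D5:**
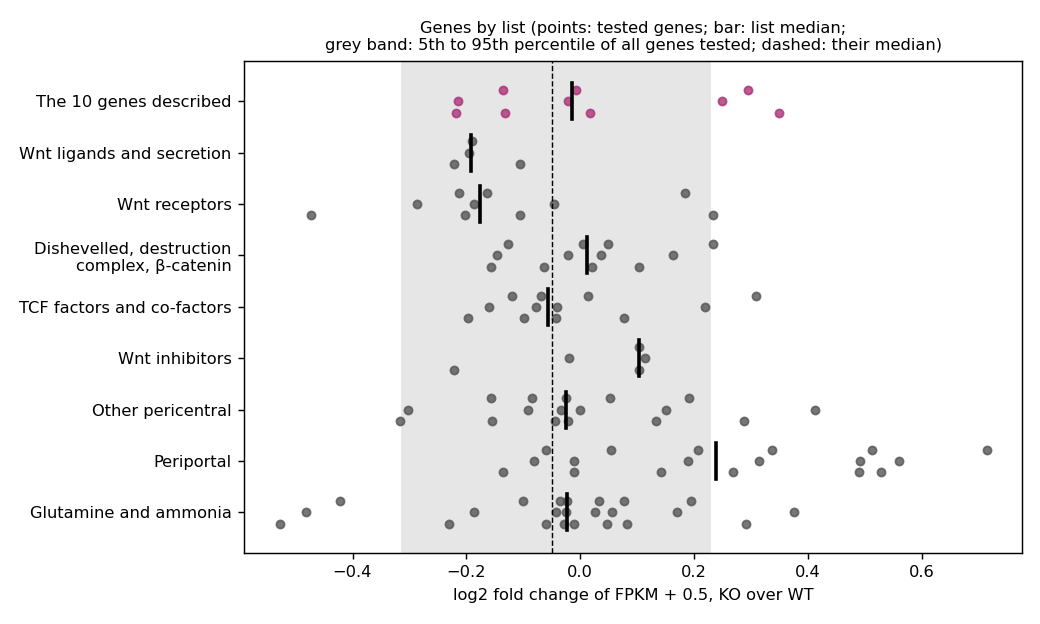
Log2 fold change, KO over WT (x axis, on log2(FPKM + 0.5)), of each tested gene in the 10 genes described and in 8 lists, with list medians as bars and the median and the 5th to 95th percentile of all genes tested as dashed line and band. Medians run from -0.19 for Wnt ligands and secretion to 0.24 for periportal genes, and that of the 10 genes is -0.01.

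Of 17 other pericentral genes, all tested, 7 had values above and 10 below 0 (median -0.02), and 0 passed, where an unadjusted p under 0.05 was reached by 2 higher genes and 1 lower gene. Cyp1a2, a P450 enzyme that metabolises caffeine, averaged 122 ± 18.5 FPKM in WT against 149 ± 16.4 FPKM in KO (log2 fold change 0.29, limma adjusted p = 0.309), and Cyp2e1, the ethanol-oxidising P450, at 7372 ± 853 and 6885 ± 355 FPKM (log2 fold change -0.09, limma adjusted p = 0.720). WT replicate 2 was the lowest WT library in both, at 93.55 FPKM in Cyp1a2 and 5871 FPKM in Cyp2e1. In Cyp2e1 the groups overlapped through that library alone. The other WT libraries were at 7487 to 7869 FPKM and the KO libraries at 6496 to 7418 FPKM. The dioxin receptor Ahr was at 10.4 ± 1.02 and 11.9 ± 1.13 FPKM, and the fatty aldehyde dehydrogenase Aldh3a2 at 391 ± 65.9 and 313 ± 24.9 FPKM (log2 fold change -0.30, limma adjusted p = 0.318). In Aldh3a2, too, the overlap came from WT replicate 2 alone, at 275 FPKM. The other WT libraries were at 406 to 437 FPKM and the KO libraries at 278 to 341 FPKM. No fit of these genes without WT replicate 2 is given, and the share of all genes with such a pattern was not counted. Of 18 periportal genes, 13 had values above and 5 below 0 (median 0.24), and 0 passed. An unadjusted p under 0.05 was reached by 6 higher genes and 0 lower genes. Of all genes tested, 2.69% were higher and 9.07% lower at that p, and 34.9% had values above 0. Sds and Cps1 had no overlap between the genotypes, a separation that 0.581% of all genes tested showed in this direction. Sds, a serine dehydratase, ran from 119 to 231 FPKM in WT against 234 to 337 FPKM in KO, and Cps1 from 515 to 653 and 655 to 1081 FPKM. Asl, the argininosuccinate lyase, did overlap (293 to 464 and 407 to 641 FPKM). Sds, Asl and Cps1 are named because they were the 3 genes of lowest p in this list.

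Of 30 genes for glutamine, glutamate and ammonia handling outside the 10, 23 were tested, 10 with values above and 13 below 0 (median -0.02), and 0 passed. Aldh18a1, which makes proline and ornithine precursors from glutamate, averaged 1.07 ± 0.48 FPKM in WT against 0.600 ± 0.231 FPKM in KO (SD, n = 5 each), and the alanine aminotransferase Gpt at 134 ± 16.3 and 152 ± 15.4 FPKM. Glud1, the glutamate dehydrogenase that links glutamate to ammonia, was at 380 ± 21.3 and 372 ± 7.26 FPKM (log2 fold change -0.03, 95% CI -0.15 to 0.09). Rhag and Rhcg, the relatives of Rhbg, were listed at 0 in every library, so Rhbg was the one ammonium channel gene of this family with a measured level.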

How the data were processed

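Poly(A)-selected liver RNA of 5 KO and 5 WT samples was sequenced in pairs, per the labels' protocols. The authors deposited FPKM with 2 decimals for 47729 genes, 1 column per library, matched to samples by the library names in the labels. STAR, RSEM, R 4.0.2, DESeq2, DESeq and mm10 are named in the submitters' processing notes. The library kit kept strand, per the labels' protocols, but the tools' roles, the annotation and the strand setting of the counting are not stated there. Because FPKM is relative to the library's total, a large change in highly expressed genes moves all others, and no counts were rebuilt.

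Depth was fitted so that low values of genes with 1 transcript of 350 to 1000 bases (GENCODE M21) became whole fragments. Between 94.3% and 98.2% of values came within 0.1 fragment of a whole number.

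Values were tested as log2(FPKM + 0.5) for genes averaging 0.5 FPKM or more, with limma 3.58.1 in R 4.3.3 (two-sided, with a robust prior that follows a trend in level; p adjusted by Benjamini-Hochberg over all 12395 genes, threshold 0.05), after a check on simulated data. Fold changes on this scale understate those of low genes. The 2 ratios were compared by exact permutation. The 10 genes and the lists were chosen with earlier results of these data known. Genes named are the 10, Etnppl, 12 fixed genes, up to 3 of lowest p in each of 8 lists and the 3 of most similar pattern to Glul, Oat and Axin2. One gene that this rule names is not reported here. Tbx3os1, Gm38392, Rhag, Rhcg and Asns were named after their values were seen. Alternatives were other pseudocounts, filters, scalings and priors, array weights, a block for replicate number, a threshold of 0.1, each library left out, and, added after seeing the data, WT replicate 2 and KO replicate 3 left out together and, for gene pairs, WT replicate 2 alone. Coordinates are from GENCODE M21 (GRCm38, the assembly behind mm10).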

Additional observations from a re-analysis of the deposited data

Results flagged for a closer look

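In 12 of 110 groups of 5 libraries examined, 1 library lay far from the other 4. The rule would mark about 1 group in 20 if groups were independent and normally distributed. The groups examined share the same 10 libraries and include ratios of genes that were also examined. The count of 12 therefore cannot be read as an excess over chance. WT replicate 2 was the library in 6 of the 12. It was the lowest WT library in Glul (244 FPKM, the others 393 to 438), in Cyp2e1 (5871 FPKM, the others 7487 to 7869) and in Aldh3a2 (275 FPKM, the others 406 to 437). It was the highest in Gls2 (249 FPKM, the others 133 to 164) and the lowest in the log2 ratios of Glul to Gls2 (-0.031, the others 1.26 to 1.72) and of Glul to Cps1 (-1.42, the others -0.63 to -0.39).

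WT replicate 5 was the lowest WT library in Axin2 (3.29 FPKM, the others 4.68 to 5.23) and the highest in Tcf7l2 (7.74 FPKM, the others 5.06 to 5.38). KO replicate 1 was the lowest KO library in the log2 ratio of Glul to Gls2 (1.17, the others 1.57 to 1.68), KO replicate 4 in Glud1 (359 FPKM, the others 375 to 376) and KO replicate 5 in Tle1 (24.5 FPKM, the others 36.7 to 39.6). KO replicate 3 had 163 FPKM summed over the pancreas markers, against 2.32 to 3.31 FPKM in the other KO libraries.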

How the results depend on the processing

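Under all 22 alternatives, 0 of the 10 genes passed the limma test, and Glul, Slc1a2 and Rhbg stayed above 0 and Axin2, Rnf43 and Nkd1 below 0. The values nearest 0 changed sign. Oat was 0.049 with median-of-ratios scaling, 0.0036 when rescaled to a fixed sum and 0.021 with array weights. Lgr5 was 0.027 with median-of-ratios scaling, 0.035 with quantile normalization and 0.15 without both WT replicate 2 and KO replicate 3, and Znrf3 was -0.010 with array weights. With 1 library left out, Oat ran from -0.057 to 0.078, Lgr5 from -0.17 to 0.15, Tbx3 from -0.27 to 0.12 and Znrf3 from -0.060 to 0.12. The number of genes called in all was 8, and 5 with no filter, 5 with no trend and no robust prior, 18 with array weights, 5 with the replicate number as a block, 30 at a threshold of 0.1 and 4 to 18 with 1 library left out, 18 being without WT replicate 2. The genes at an unadjusted p under 0.05, 334 higher and 1124 lower, became 669 and 599 with median-of-ratios scaling and 645 and 680 with quantile normalization. The cause of these changes was not tested. Same-numbered libraries deviated together only in part (correlations of -0.025 to 0.20). Just WT replicates 1 and 5 correlated best with the KO library of their own number. With 5 libraries per genotype, these correlations cannot decide whether the numbers pair the samples. With the block, limma adjusted p was 0.344 for Glul and 0.274 for Slc1a2. Both ratios kept their sign under all 13 alternatives and passed under none, but the block's sign-flip test of 5 pairs cannot give a p below 0.0625.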

Other observations

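WT replicate 2 differed from the other WT libraries across the zonation lists. It was the lowest WT library in 5 of the 10 genes and in 10 of the 17 other pericentral genes, and the highest in 11 of the 18 periportal genes. No other library was the lowest of its genotype in more than 6 of the 17 pericentral genes. As highest library of its genotype in the periportal list, KO replicate 1 came next with 8 of 18. In the opposite direction, WT replicate 4 was the highest WT library in 9 of the 17 pericentral genes and the lowest in 8 of the 18 periportal genes. KO replicate 5 was the lowest KO library in 9 of the 18 periportal genes. KO replicate 1 was also the lowest KO library in 4 of the 10 genes, Tbx3, Rnf43, Axin2 and Glul. Asns, the asparagine synthetase that uses glutamine, was at 3.57 FPKM in WT replicate 2 and at 0.02 to 0.52 FPKM in the other libraries.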
